A study of Mus musculus with 6 samples.

Results

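Chemokines are small secreted or membrane-tethered proteins that draw leukocytes along gradients, and 10 of their genes were followed here in mouse tissue labelled as aorta: Cxcl9, Cxcl10, Cxcl1, Cxcl5, Cxcl12, Cxcl13, Cxcl14, Ccl2, Ccl8 and Cx3cl1. They were picked by name as chemokines of vessel wall and mucosa, with earlier results of these data known. All 10 were found among the 19938 genes that the platform annotation names with a single symbol. Each was measured by 1 probe set, a group of short probes for the same transcript. Values are log2 signals as deposited, so a difference of 1 is a 2-fold difference in signal. Since probes differ in brightness, levels are compared between arrays for a gene and never between genes.

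RNA came from 3 samples of Trail knockout mice and 3 samples of wild-type mice, and each sample was hybridised to its own one-colour Affymetrix array. Per the labels all were aorta of C57Bl6/J mice aged 6 weeks, and the knockout line was obtained from Amgen. Trail, the product of Tnfsf10, is a secreted or membrane-bound death ligand of the tumour necrosis factor family. The labels name no agent, treatment or further allele in either group. They give neither sex nor whether the samples of a genotype came from separate animals, so p-values measure only the spread between these samples.

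In the vessel wall, chemokine genes fall into inducible and constitutive ones. Interferon gamma, made by T and NK cells, switches on Cxcl9 and Cxcl10 in endothelium, smooth muscle and macrophages, and their receptor Cxcr3 sits on activated T and NK cells. Injury and microbial signals acting through NF-kB raise Cxcl1 and Ccl2, which bring in neutrophils and monocytes, while stromal cells make Cxcl12 at steady state.

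The array titled Wildtype 1, called wild type 1 below, stood apart from the other 5 arrays, so each genotype difference is given with and without it. Across probe sets with a single gene symbol, wild type 1 correlated with each other array at a Pearson r of 0.887 to 0.897, while pairs of the other 5 arrays reached 0.970 to 0.996. Of the 19938 genes, 944 (4.73%) were over 2-fold above every other array there and 945 (4.74%) over 2-fold below. Tnfsf10, the gene deleted in the knockout, gave 5.02, 4.48 and 4.09 on knockout 1, 2 and 3, against 8.42, 4.90 and 4.85 on wild type 1, 2 and 3. The difference was -1.53 (SE 0.98, limma adjusted p = 0.946), and -0.35 (SE 0.25) without wild type 1. Its probe set was dim, at a mean of 5.29, and was tested among all probe sets with a single gene symbol. Wild type 2 and wild type 3 were both below knockout 1, and it is not known whether the probes target the deleted exons. Among smooth muscle genes, which are not particular to the vessel wall, Acta2 was bright on all 6 arrays at 12.27 to 12.63. The median of that list was 9.38 on wild type 1 and 10.30 to 11.09 elsewhere, with 2 of 10 genes over 2-fold below every other array on wild type 1. Genes of other tissues were also bright: the skeletal muscle list had medians of 10.60 to 11.45 and the stratified squamous epithelium list 10.97 to 11.26 on the 5 arrays other than wild type 1, which gave 5.71 and 5.09, with 15 of 15 and 17 of 17 genes over 2-fold below every other array. The stomach list stood at 12.11 on knockout 2 (10 of 11 genes over 2-fold above every other array) and at most 6.63 elsewhere, and the lung list at 7.11 on knockout 1 and at most 5.40 elsewhere. These are bulk samples, so fewer cells of a type and less RNA per cell cannot be told apart.

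Promoter sequences are shown for Cxcl9, Cxcl10 and Ccl8, the members that were over 2-fold higher on wild type 1 than on every other array, and for Cxcl1, an inducible member that was not. The 250 bases before each RefSeq start (build GRCm38.p6) are given 5′ to 3′ on the gene's strand. Capitals mark matches, on either strand, to the interferon-stimulated response element core GAAANNGAAA, the STAT-binding GAS element TTCNNNGAA or the kappa-B consensus of NF-kB.
Cxcl9, chr5:92328080-92328329, minus strand: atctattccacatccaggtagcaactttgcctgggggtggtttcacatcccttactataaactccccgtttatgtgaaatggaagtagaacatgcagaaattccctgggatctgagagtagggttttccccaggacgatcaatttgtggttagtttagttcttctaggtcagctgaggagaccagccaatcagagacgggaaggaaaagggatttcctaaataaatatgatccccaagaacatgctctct
Cxcl10, chr5:92348890-92349139, minus strand: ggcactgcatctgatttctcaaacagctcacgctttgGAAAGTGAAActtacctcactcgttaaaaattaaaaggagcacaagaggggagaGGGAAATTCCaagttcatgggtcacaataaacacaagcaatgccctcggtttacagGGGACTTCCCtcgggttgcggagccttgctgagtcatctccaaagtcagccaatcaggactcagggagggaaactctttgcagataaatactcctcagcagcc
Ccl8, chr11:82114935-82115184, plus strand: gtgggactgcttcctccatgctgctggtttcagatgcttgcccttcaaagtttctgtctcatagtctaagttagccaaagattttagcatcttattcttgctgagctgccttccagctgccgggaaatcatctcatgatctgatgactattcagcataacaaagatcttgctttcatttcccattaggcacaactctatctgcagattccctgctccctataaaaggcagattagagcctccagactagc
Cxcl1, chr5:90890995-90891244, plus strand: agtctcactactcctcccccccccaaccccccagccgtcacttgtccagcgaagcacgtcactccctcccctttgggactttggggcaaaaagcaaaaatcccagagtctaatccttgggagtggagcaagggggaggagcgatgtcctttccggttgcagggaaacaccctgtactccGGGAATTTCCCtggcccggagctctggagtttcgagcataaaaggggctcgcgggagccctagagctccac
The Cxcl10 stretch held a response element core, GAAAGTGAAA, from base 213 to 204 before the start, and kappa-B matches at bases 159 to 150 and 103 to 94. The Cxcl1 stretch held overlapping kappa-B matches, 1 on each strand, between bases 71 and 61. The Cxcl9 and Ccl8 stretches held none of the 3 motifs. RefSeq's table had an entry for 8 of the 10 members, and besides these only Cxcl14, a member that varied little between arrays, matched a motif, the response element core and the GAS element. Of all 32851 promoter stretches of this length, 2.98% held the response element core, 7.02% the GAS element and 3.90% the kappa-B consensus. A match describes the letters of this window and not a binding site.

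Cxcl9 gave the widest range of the 10 members. Its signal was 5.12, 5.23 and 5.02 on knockout 1, 2 and 3, against 10.17, 5.10 and 5.15 on wild type 1, 2 and 3. Wild type 1 was 30.6-fold above the highest of the other 5 arrays, which spanned only 1.16-fold among themselves, and the groups overlapped. The knockout group averaged 5.13 ± 0.11 and the wild-type group 6.80 ± 2.91 (SD, n = 3 each), a difference of -1.68 (SE 1.40, limma adjusted p = 0.911). Without wild type 1 the wild-type mean was 5.12 ± 0.04 (SD, n = 2) and the difference 0.01 (SE 0.16, 95% interval -0.37 to 0.38). Cxcl9 passed the filter on dim probe sets, set at a mean of 5.90, only through wild type 1, since its mean over the other 5 arrays was 5.12.

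Cxcl10 was likewise highest on wild type 1. It gave 5.22, 5.17 and 5.23 on knockout 1, 2 and 3, against 8.11, 5.09 and 4.94 on wild type 1, 2 and 3. Wild type 1 was 7.33-fold above the next array. The difference was -0.84 (SE 0.84, limma adjusted p = 0.946) on 6 arrays and 0.19 (SE 0.13, 95% interval -0.11 to 0.49) without wild type 1. On those 5 arrays the groups did not overlap, as for 13.8% of all genes, with the knockout arrays at least 0.076 log2 units above the wild-type ones. Its probe set lay below the filter and was tested in a fit without it. Cxcl9 and Cxcl10 are neighbours on chromosome 5, with Art3 between them.

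Other genes that interferon gamma is known to switch on had their high values on the same array. Of 18 measured genes of that list, 11 were over 2-fold above every other array on wild type 1, where the list median was 9.36 against 6.68 to 6.89 elsewhere. Iigp1, an interferon-inducible GTPase, reached 11.60 there, 35.2-fold above the next array, and Gbp3, a guanylate-binding protein gene, 10.81. Ifng itself lay between 4.83 and 5.36 on the 6 arrays, with 5.23 on wild type 1. Between genotypes, 0 of the 16 list genes past the filter passed the test, 14 were lower and 2 higher in the knockout, and their median difference was -0.71, beside -0.04 over all 13073 probe sets tested. Gbp5, another guanylate-binding protein gene, passed the filter only through wild type 1. Without wild type 1 that median was 0.03, beside -0.03 over all.

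The receptor of Cxcl9 and Cxcl10 also peaked on wild type 1. Cxcr3 gave 5.88, 5.73 and 5.76 on knockout 1, 2 and 3, against 7.12, 5.50 and 5.77 on wild type 1, 2 and 3. Its difference was -0.34 (SE 0.43) on 6 arrays and 0.16 (SE 0.15) on 5. The T and NK cell list had a median of 6.40 on wild type 1 and 4.80 to 5.31 elsewhere, and 3 of its 10 genes exceeded every other array by over 2-fold there. Nkg7, a granule protein gene of cytotoxic cells, was named here after its values were seen, and the list's markers of highest mean are not given. It gave 5.46, 4.83 and 4.73 on knockout 1, 2 and 3, against 7.50, 4.76 and 5.08 on wild type 1, 2 and 3. The part of T and NK cells in the chemokine values was not tested. Cxcl11, another ligand of Cxcr3 whose reading frame is known to be broken in C57BL/6 mice, stayed at 4.43 to 4.68 throughout, with overlapping groups.

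**Figure D1:**
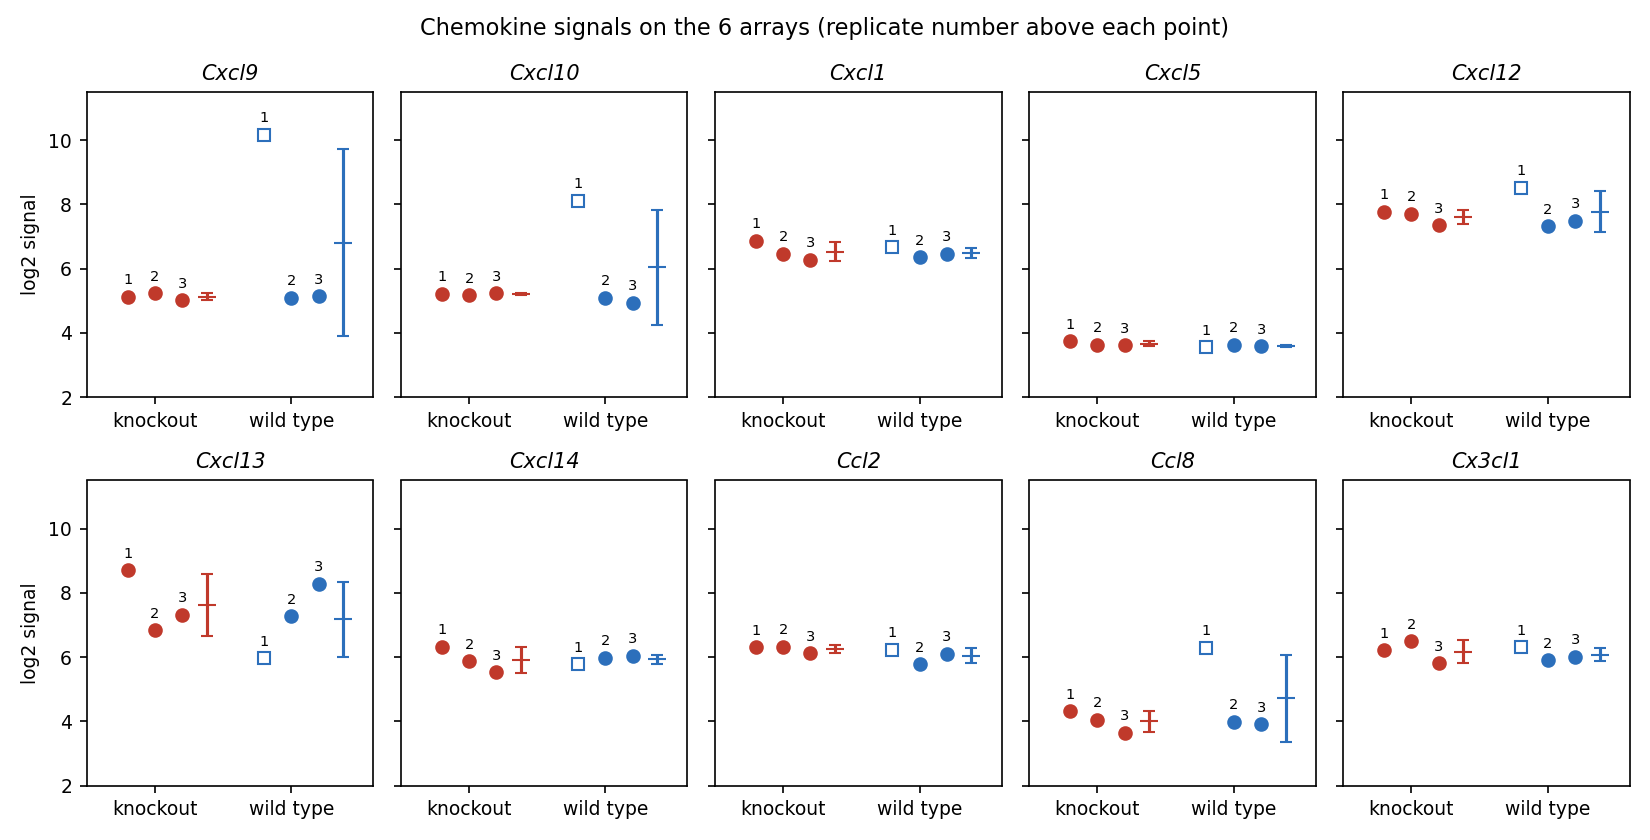
Log2 signal of each of the 10 chemokine genes (vertical axes, 1 panel per gene) on the 3 knockout arrays (red) and the 3 wild-type arrays (blue, with wild type 1 as an open square); bars give the group mean and SD (n = 3). Wild type 1 lies far above all other arrays for Cxcl9 (10.17), Cxcl10 (8.11) and Ccl8 (6.29) and below them for Cxcl13 (5.97).

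Among the members that attract monocytes and related cells, Ccl8 was above all other arrays on wild type 1 and Ccl2 was not. In the mouse Ccl8 acts through Ccr8 and is made by resident macrophages and skin. Ccr8, below the filter, stayed between 3.86 and 4.21 on the 6 arrays, with 4.04 on wild type 1. Ccl8 gave 4.31, 4.04 and 3.65 on knockout 1, 2 and 3, against 6.29, 3.99 and 3.91 on wild type 1, 2 and 3. Wild type 1 was 3.93-fold above the next array. The difference was -0.72 (SE 0.65, limma adjusted p = 0.946) on 6 arrays and 0.06 (SE 0.19) without wild type 1. The Ccl8 probe set lay below the filter, at a mean of 4.36, and was tested in a fit without it.

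Ccl2, the main ligand of Ccr2 on monocytes, gave 6.31, 6.33 and 6.12 on knockout 1, 2 and 3, against 6.24, 5.79 and 6.11 on wild type 1, 2 and 3. Wild type 2 was the low array. The knockout group averaged 6.25 ± 0.12 and the wild-type group 6.05 ± 0.23 (SD, n = 3 each), a difference of 0.21 (SE 0.15, limma adjusted p = 0.911). Without wild type 1 the difference was 0.30 (SE 0.15, 95% interval -0.06 to 0.67, limma adjusted p = 0.997), the lowest unadjusted p of the 10 members at 0.0921, and the groups no longer overlapped. The lowest knockout array was then only 0.0037 log2 units above the highest wild-type array.

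Ccl2 and Ccl8 belong to a run of neighbouring genes on chromosome 11, Ccl2, Ccl7, Ccl11, Ccl12, Ccl8 and Ccl1. Within it Ccl8 and Ccl12, another monocyte attractant, exceeded every other array by over 2-fold on wild type 1. Ccl12 gave 4.27, 4.15 and 4.59 on knockout 1, 2 and 3, against 5.69, 4.13 and 3.94 on wild type 1, 2 and 3. Like that of Ccl8, its probe set lay below the filter. Ccl7 lay between 5.87 and 6.33, the eosinophil attractant Ccl11 between 7.91 and 8.45 and Ccl1 between 4.63 and 4.99. So wild type 1 stood out for 2 of these 6 neighbours. The monocyte and macrophage list had a median of 8.19 on wild type 1 and 7.46 to 8.01 elsewhere, and 0 of its 15 genes was over 2-fold above all other arrays there.

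Ccr2, the receptor of Ccl2, gave 7.06, 6.56 and 7.59 on knockout 1, 2 and 3, against 7.58, 7.54 and 6.92 on wild type 1, 2 and 3. Knockout 2 was lowest, as it was for the macrophage list at 7.46. The difference was -0.28 (SE 0.32) on 6 arrays and -0.16 (SE 0.32) on 5.

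The neutrophil attractants Cxcl1 and Cxcl5 varied little. Cxcl1 gave 6.87, 6.46 and 6.28 on knockout 1, 2 and 3, against 6.67, 6.35 and 6.47 on wild type 1, 2 and 3. Its difference was 0.04 (SE 0.18, limma adjusted p = 0.962) on 6 arrays and 0.13 (SE 0.19) without wild type 1, with knockout 1 as the high array. Cxcl5, known from epithelium and platelets, was flat at 3.74, 3.64 and 3.61 on knockout 1, 2 and 3, against 3.56, 3.63 and 3.58 on wild type 1, 2 and 3. Its difference was 0.07 (SE 0.07) on 6 arrays and 0.06 (SE 0.10) on 5, and its probe set lay below the filter.

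Both lie in a run of 7 chemokine genes on chromosome 5, in the order Cxcl5, Ppbp, Pf4, Cxcl3, Cxcl15, Cxcl1 and Cxcl2. Cxcl15, known as a chemokine of lung epithelium and named here after its values were seen, gave 9.0 on knockout 1 and 3.17 to 3.23 on the other 5 arrays, a 54.5-fold step. Knockout 1 is also the array on which 8 of 10 lung epithelium markers exceeded every other array by over 2-fold. Ppbp, a platelet chemokine precursor, gave 7.38, 5.36 and 5.55 on knockout 1, 2 and 3, against 8.21, 6.48 and 7.82 on wild type 1, 2 and 3. Its groups overlapped, and the difference of -1.41 (SE 0.70, limma adjusted p = 0.911) became -1.05 (SE 0.67) without wild type 1. Pf4, platelet factor 4, differed by -0.38 (SE 0.27) and, without wild type 1, by -0.51 (SE 0.26), lowest on knockout 2 at 6.83. On those 5 arrays all knockout values of Pf4 were below the wild-type ones. There 3 of the 11 other ligands past the filter did not overlap, Pf4 lower in the knockout and the others higher. Over all genes, without the filter, 13.8% did not overlap on 5 arrays. Cxcl2 and Cxcl3 ranged from 3.86 to 4.75 and from 3.82 to 4.24.

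Cxcr2, the receptor of Cxcl1 and Cxcl5, was the chemokine receptor with the widest range. It gave 6.62, 5.94 and 6.90 on knockout 1, 2 and 3, against 3.69, 6.92 and 6.05 on wild type 1, 2 and 3. Wild type 1 was 4.75-fold below the next array. The difference was 0.93 (SE 0.84) on 6 arrays and 0.00 (SE 0.35) on 5. The low Cxcr2 value lay on the array where all 17 squamous epithelium genes were over 2-fold below the others, as was S100a9, the 1 granulocyte marker of 8 that was low there, at 4.77 against 7.01 to 8.01. The other granulocyte markers included S100a8, at 4.84 to 5.57 on the 6 arrays. The part of epithelium or granulocytes in the Cxcr2 value was not tested.

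Cxcl12, the stromal chemokine that holds leukocytes and progenitors through Cxcr4, was highest on wild type 1. It gave 7.77, 7.71 and 7.35 on knockout 1, 2 and 3, against 8.52, 7.32 and 7.48 on wild type 1, 2 and 3. Wild type 1 was 1.68-fold above knockout 1, while the other 5 arrays spanned 1.36-fold. The difference was -0.16 (SE 0.34, limma adjusted p = 0.925), and 0.21 (SE 0.16, 95% interval -0.17 to 0.58) without wild type 1. Endothelial markers had a median of 7.92 on knockout 1 and 8.75 on wild type 1, with 7.15 to 7.38 elsewhere, and 4 of 12 stood over 2-fold above every other array on wild type 1. White fat markers stood at 7.13 to 8.38 elsewhere and 11.08 on wild type 1 (10 of 12), brown fat markers at 6.32 to 6.65 and 9.41 (6 of 9), and fibroblast and adventitia markers at 9.64 to 10.18 on the 6 arrays. The part of endothelium or fat in the Cxcl12 values was not tested.

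The receptors of Cxcl12 were measured too. Cxcr4 gave 7.81, 6.68 and 7.20 on knockout 1, 2 and 3, against 7.88, 7.07 and 6.92 on wild type 1, 2 and 3, with a difference of -0.06 (SE 0.38) that turned to 0.23 (SE 0.31) without wild type 1. Ackr3, which scavenges Cxcl12, gave 7.37, 7.01 and 7.64 on knockout 1, 2 and 3, against 7.99, 7.48 and 7.51 on wild type 1, 2 and 3, with a difference of -0.31 (SE 0.22) on 6 arrays and -0.15 (SE 0.19) on 5. Their ligand was highest on wild type 1, and so were both receptors, Cxcr4 by only 1.05-fold over the next array and Ackr3 by 1.27-fold. Ackr2, a scavenger of inflammatory CC chemokines, was lowest there at 5.77, against 6.22 to 6.65 elsewhere, with a difference of 0.28 (SE 0.23) on 6 arrays and 0.07 (SE 0.17) on 5.

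Cxcl13, which guides B cells into lymphoid follicles through Cxcr5, was the 1 member that varied over 2-fold among the 5 arrays other than wild type 1. It gave 8.70, 6.85 and 7.32 on knockout 1, 2 and 3, against 5.97, 7.27 and 8.29 on wild type 1, 2 and 3. Knockout 1 and wild type 3 were the high arrays and wild type 1 the low one, so each group held a high array. The knockout group averaged 7.62 ± 0.96 and the wild-type group 7.18 ± 1.16 (SD, n = 3 each), a difference of 0.45 (SE 0.73, limma adjusted p = 0.911). Without wild type 1 the sign turned, at -0.16 (SE 0.56, 95% interval -1.49 to 1.17).

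The high Cxcl13 arrays were also high for the B cell and lymphoid stroma list. Its median was 5.82, 5.16 and 5.09 on knockout 1, 2 and 3, against 5.27, 5.22 and 5.68 on wild type 1, 2 and 3. Ms4a1, which encodes the B cell antigen CD20, gave 5.72, 4.40 and 4.68 on knockout 1, 2 and 3, against 4.54, 4.85 and 5.71 on wild type 1, 2 and 3. Cd79a, a chain of the B cell receptor, gave 4.78 on knockout 1 and 4.63 on wild type 3 and at most 4.13 elsewhere. Ms4a1 and Cd79a were named after their values were seen, and the list's markers of highest mean are not given. No gene of the list was over 2-fold above all other arrays on either array, and Cxcr5 stayed between 3.63 and 4.20. Mesothelial markers had medians of 7.13 on knockout 1, 6.83 on wild type 1 and 5.95 to 6.57 elsewhere. The part of these cells in the Cxcl13 values was not tested.

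Cxcl14, which epithelia make at steady state and whose receptor is not settled, gave 6.33, 5.87 and 5.53 on knockout 1, 2 and 3, against 5.78, 5.99 and 6.05 on wild type 1, 2 and 3. Its difference was -0.03 (SE 0.22, limma adjusted p = 0.975) on 6 arrays and -0.11 (SE 0.23, 95% interval -0.67 to 0.45) on 5. The knockout arrays held both the highest and the lowest value. On wild type 1, where squamous epithelium genes were low, Cxcl14 lay inside the range of the other arrays. Its mean of 5.92 was just above the filter, and that of Cxcl9 was 5.96, while Cxcl10, at 5.63, was the nearest member below it.

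Cx3cl1, or fractalkine, is a membrane-bound chemokine of endothelium and epithelium that binds Cx3cr1 on monocytes. It gave 6.21, 6.50 and 5.81 on knockout 1, 2 and 3, against 6.32, 5.91 and 6.01 on wild type 1, 2 and 3. Knockout 2 was highest and knockout 3 lowest. The difference was 0.10 (SE 0.21, limma adjusted p = 0.928) on 6 arrays and 0.21 (SE 0.21) on 5. Its neighbours on chromosome 8, Ccl22 and Ccl17, ranged from 4.33 to 4.55 and from 4.67 to 5.19. Ccl22, a ligand of Ccr4, was below the filter and did not overlap between the groups, at 4.33 to 4.34 on the knockout arrays and 4.43 to 4.55 on the wild-type arrays. Ccl4, on chromosome 11 and also below the filter, did not overlap in the other direction, at 4.78 to 4.83 on the knockout arrays and 4.52 to 4.71 on the wild-type arrays. These were 2 of 26 other ligands, beside 6.31% of all genes. Its receptor Cx3cr1 gave 6.55, 6.82 and 6.64 on knockout 1, 2 and 3, against 7.11, 6.19 and 6.55 on wild type 1, 2 and 3, with a difference of 0.05 (SE 0.25) on 6 arrays and 0.30 (SE 0.16) on 5.

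No member passed the comparison of the genotypes. In limma, 0 of the 7 members past the filter and 0 of the 3 below it had an adjusted p under 0.05, and none had an unadjusted p under 0.05, on 6 arrays or on 5. Among all 13073 probe sets tested, 0 (0.0%) passed on 6 arrays and 0 (0.0%) on 5, and 83 (0.635%) and 186 (1.42%) had an unadjusted p under 0.05. The adjusted p of the members lay between 0.911 and 0.975 on 6 arrays. On 6 arrays 5 members were higher and 5 lower in the knockout, and without wild type 1 8 were higher and 2 lower, with 5 changing sign. On 6 arrays the 95% intervals ran from -5.15 to 1.79 for Cxcl9, from -2.87 to 1.19 for Cxcl10 and from -1.36 to 2.25 for Cxcl13, so differences of over 2-fold in either direction lie inside them. Those of Cxcl1 (-0.42 to 0.49), Cxcl5 (-0.10 to 0.25), Cxcl14 (-0.58 to 0.52), Ccl2 (-0.17 to 0.58) and Cx3cl1 (-0.43 to 0.62) did not reach a 2-fold difference.

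**Figure D2:**
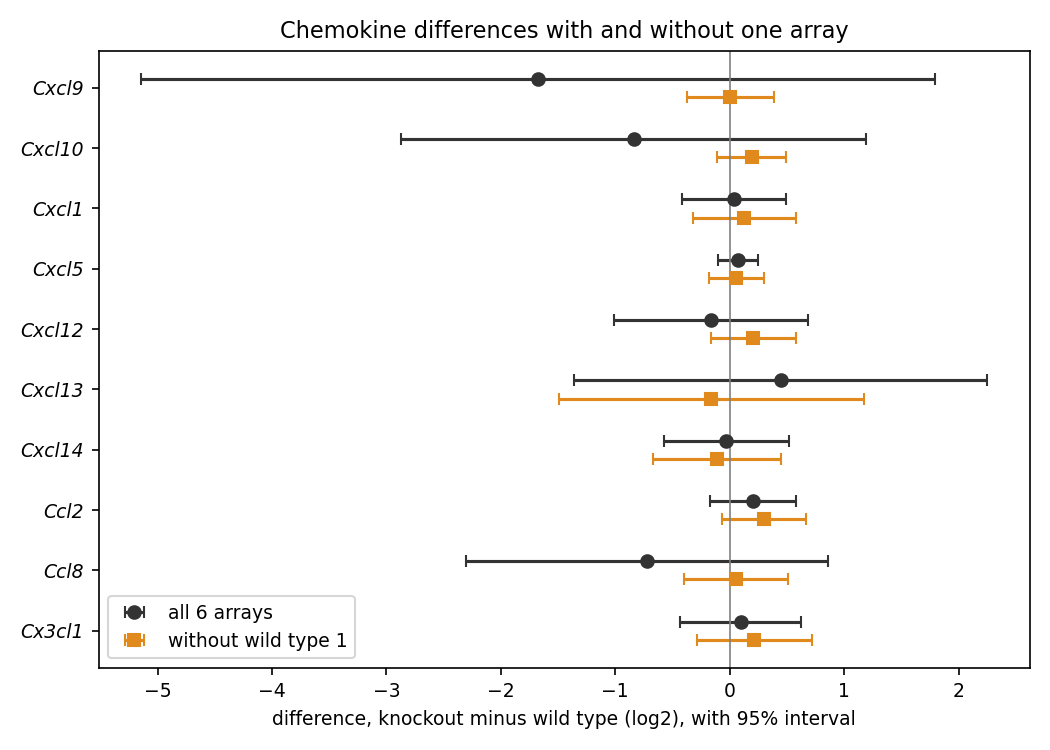
Difference in log2 signal, knockout minus wild type (horizontal axis), for the 10 chemokine genes with its 95% interval from limma, on all 6 arrays (black circles) and without wild type 1 (orange squares). Every interval includes 0, and the intervals of Cxcl9, Cxcl10 and Ccl8 narrow when wild type 1 is left out.

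The groups overlapped for all 10 members on 6 arrays. Over all 19938 genes, without the filter, 1259 (6.31%) did not overlap. Without wild type 1, 2 of 10 members did not overlap, Cxcl10 and Ccl2, both higher in the knockout, where 2754 of 19938 genes (13.8%) did not overlap and 1418 (7.11%) were higher in the knockout. On wild type 1, 3 of 10 members were over 2-fold above every other array and 0 below, beside 4.73% and 4.74% of all genes, and the same 3 stood out after quantile normalization and after median centring. The members were chosen with earlier results of these data known, so the 3 of 10 is a description and no test of an excess. On no other array was a member over 2-fold above or below all the rest. On knockout 2, 1.26% of all genes were over 2-fold above every other array. The median difference of the 7 members past the filter was 0.04 on 6 arrays and 0.13 on 5, beside -0.04 and -0.03 over all probe sets tested.

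The other chemokine ligands and the receptors were described in the same way. Of 26 other ligands measured, 11 passed the filter, Cxcl17 only through knockout 2, and 0 passed the test. Of these 11, 4 were higher and 7 lower in the knockout on 6 arrays, and 6 higher and 5 lower on 5. Ccl5, which T cells and platelets release, had its high value on wild type 1, at 6.55, 6.30 and 6.19 on knockout 1, 2 and 3, against 8.70, 6.28 and 6.36 on wild type 1, 2 and 3. Its difference was -0.76 (SE 0.67) on 6 arrays and 0.03 (SE 0.15) on 5. Cxcl17, a mucosal chemokine, had its high value on knockout 2, the array with stomach genes, at 7.63 against 5.45 to 5.99 elsewhere, and differed by 0.61 (SE 0.56) on 6 arrays and 0.66 (SE 0.59) on 5. Of 22 receptors measured, 9 passed the filter, Cxcr3 only through wild type 1, and 0 passed the test, with 4 higher and 5 lower in the knockout on 6 arrays and 6 higher and 3 lower on 5. Cxcr3 and Cxcr6, both known from T cells, exceeded every other array by over 2-fold on wild type 1, and Cxcr2 was over 2-fold below.

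**Figure D3:**
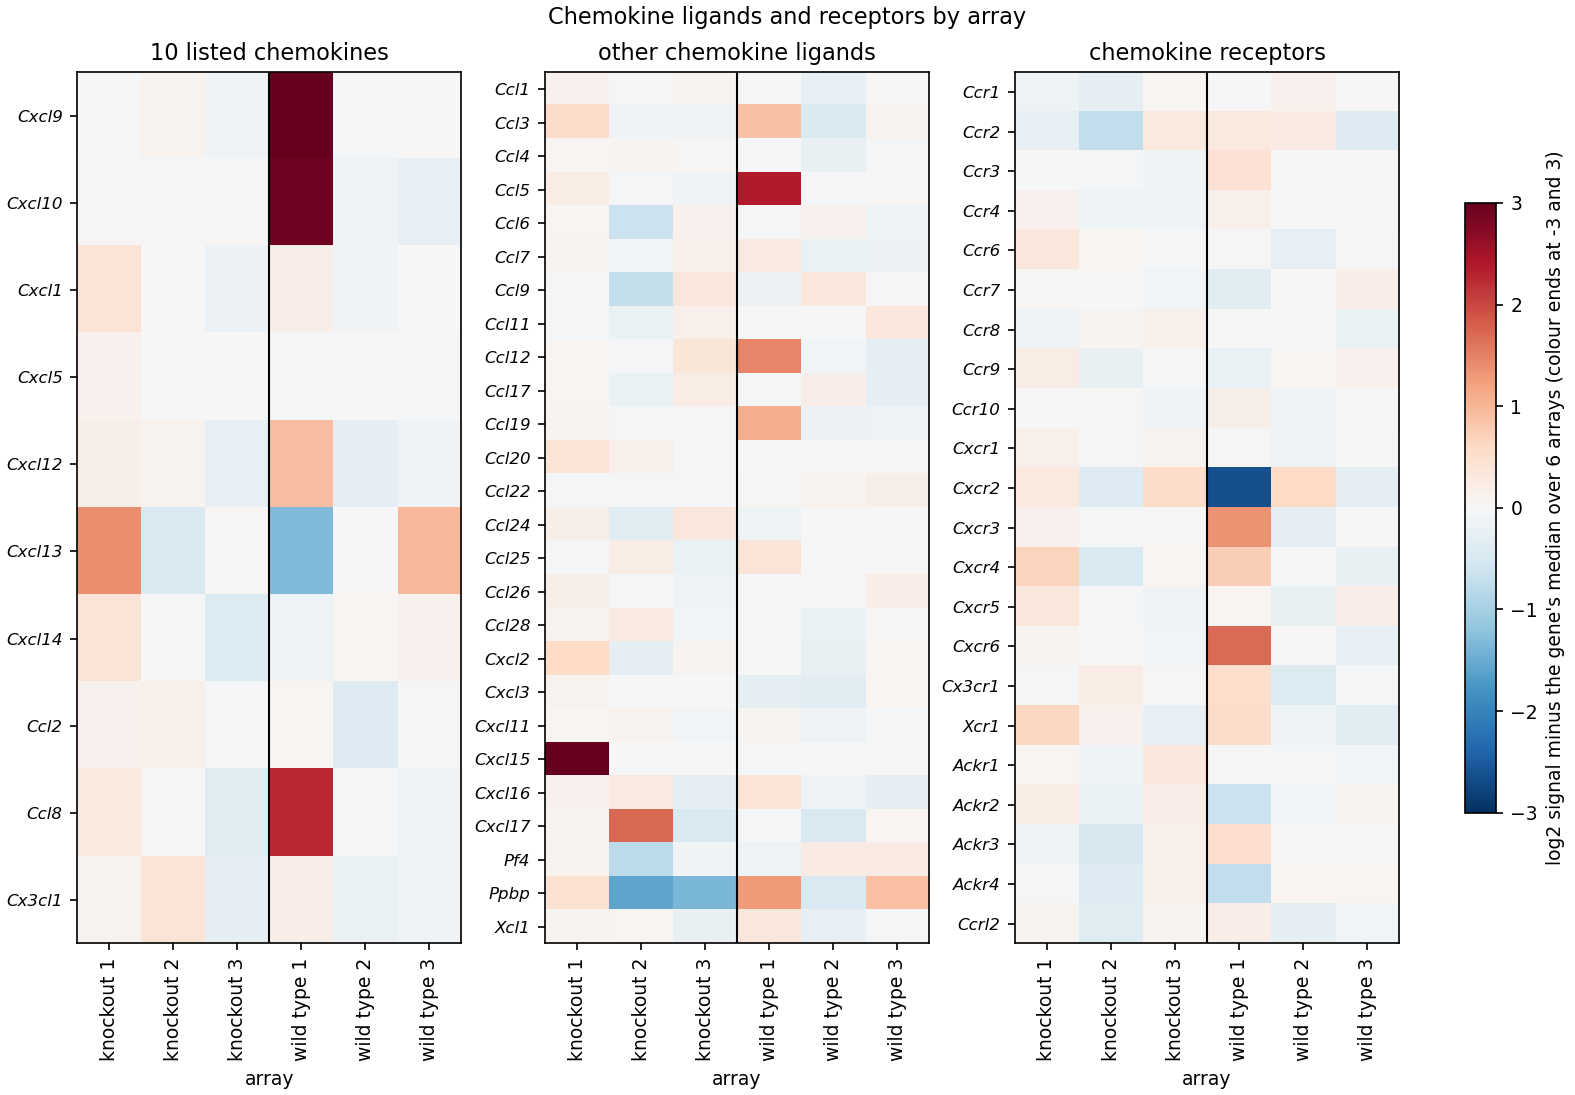
Log2 signal minus the gene's own median over the 6 arrays (colour) for the 10 listed chemokines, 26 other chemokine ligands and 22 chemokine receptors (rows), with knockout arrays left and wild-type arrays right of the line. Red cells stand, among others, on wild type 1 for Cxcl9, Cxcl10, Ccl8, Ccl5, Ccl12, Cxcr3 and Cxcr6, on knockout 1 for Cxcl15 and on knockout 2 for Cxcl17.

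For each member that varied at least 2-fold, the genes with the most similar pattern over the 6 arrays were found by Pearson r, as a description. For Cxcl9 these were Tmem192 (r = 0.999) and Cd300lg (r = 0.999), and without wild type 1 their r was 0.945 and 0.405. For Cxcl10 they were Dtx3l (r = 0.999) and Sulf2 (r = 0.999), with 0.914 and 0.864 without wild type 1. Since wild type 1 carries nearly all the variation, 2082 of 11880 genes (17.5%) had r over 0.9 with Cxcl9. For Ccl8 they were Gatd1 and Cers2, and for Cxcl12 Sipa1 and Mcfd2, with r from 0.998 to 0.999 on 6 arrays and from 0.983 to 0.993 on 5. Cxcl13 had a rarer pattern, with Dlx5 (r = 0.991, 0.983 on 5 arrays) and Tfap2e (r = 0.990, 0.985 on 5 arrays) most alike and 90 of 11880 genes (0.758%) over 0.9. Dlx5 gave 6.36 on knockout 1 and 6.27 on wild type 3, and 5.90 on wild type 1.

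**Figure D4:**
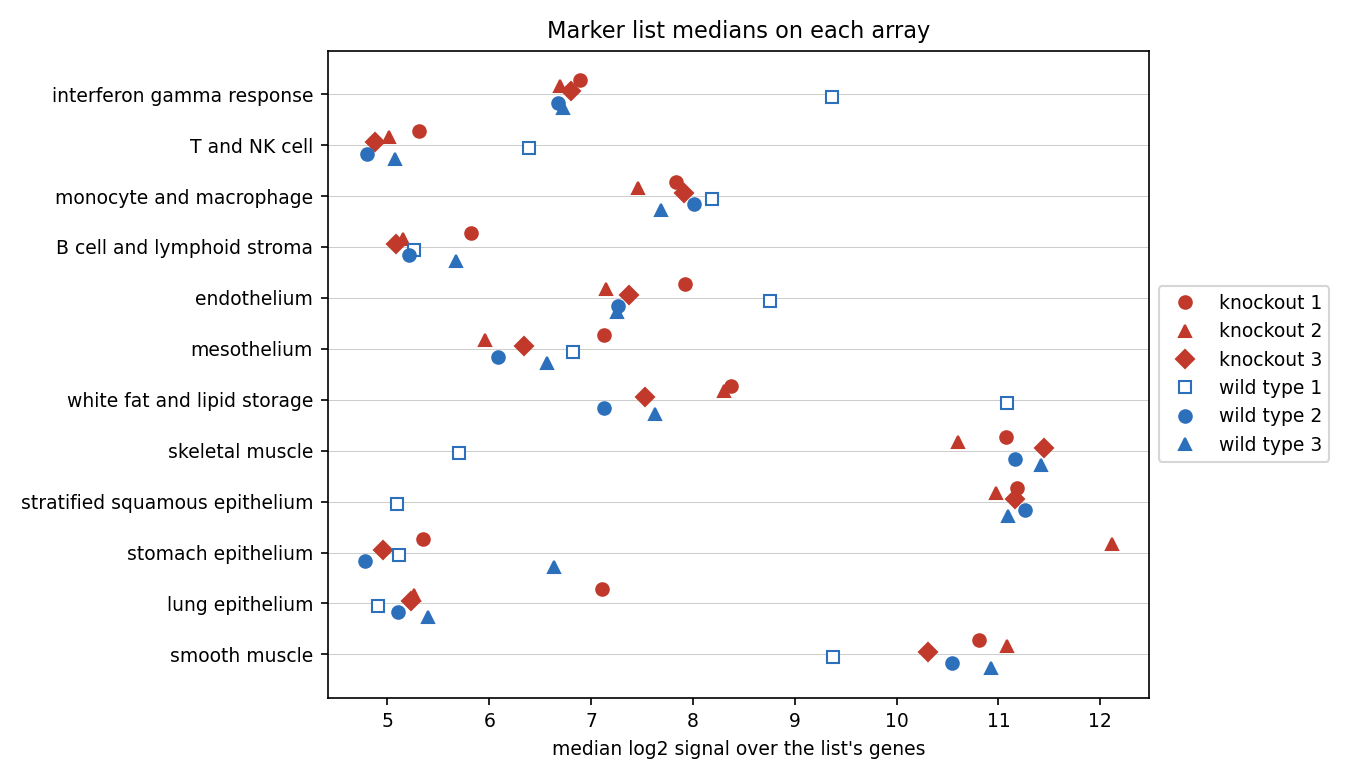
Median log2 signal over the genes of each marker list (horizontal axis) on the 3 knockout arrays (red) and the 3 wild-type arrays (blue, with wild type 1 as an open square). Wild type 1 lies above all others for the interferon gamma response (9.36) and T and NK cells (6.40) and below them for skeletal muscle (5.71), and knockout 1 and wild type 3 are highest for B cell and lymphoid stroma genes (5.82 and 5.68).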

How the data were processed

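Each of the 6 RNA samples was hybridised to an Affymetrix array of 1 colour, as biotin-labelled cRNA prepared from 6 ug of Trizol-extracted RNA, per the labels' protocols. The deposited table holds log2 values for 35399 probe sets. MAS5 is named in the submitters' processing notes, with no version or role; the sources used here state neither background correction nor scaling. The log base was inferred from the range, 1.55 to 13.96. Values were used as deposited, and no detection calls were used, so signals near background may understate differences.

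The 21789 probe sets with exactly 1 gene symbol in the platform annotation were kept; 1621 named several genes and 11989 none. Each gene was represented by its probe set of highest mean. Genotypes were compared with limma 3.58.1 in R 4.3.3 (intensity trend; Benjamini-Hochberg adjusted p under 0.05) over 13073 probe sets, leaving out the lowest 40% by mean (below 5.90). Members below that, and Tnfsf10, were fitted without the filter, over 21789. Both fits were repeated without wild type 1. The filtered fit on 6 arrays was tested on simulated data with equal spread in both groups. The simulation held no array that stood apart, so it does not cover data with wild type 1. Alternatives were quantile normalization, median centring, a pseudocount of 64, no filter, a 60% filter, array weights, a replicate block and leaving out each array, among others.

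The members and lists were chosen with earlier results of these data known. Named are all members, their receptors past the filter, up to 4 genes of each further list by lowest p, the 2 most similar genes per member, and up to 3 markers per list by highest mean. Ifng, Nkg7, Ms4a1, Cd79a, S100a8, S100a9, Ccr8, Cxcr5, Cxcr6, Cxcl11, Cxcl15, Ccl4 and the chemokine genes given as neighbours were named after their values were seen. Gene order and promoters come from RefSeq, GRCm38.p6.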

Additional observations from a re-analysis of the deposited data

How the results depend on the processing

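No member passed an adjusted p of 0.05 under any setting run. On 6 arrays 139 of 159 alternative differences kept their direction (lowest adjusted p 0.749). Without wild type 1, on 5 arrays, 68 of 77 did (lowest adjusted p 0.615). Both counts include settings that cannot alter a member's difference, so its direction was kept there by construction. On 6 arrays these included other filters, no intensity trend, the replicate block and the mean of a gene's probe sets. Cxcl9, for example, was -1.68 without the filter, as in the main fit. The fit without the filter was also among those on 5 arrays. The counts therefore overstate how far the direction was tested. With array weights, Cxcl9 kept its sign but shrank to -0.08, and Cxcl10 was 0.12, Cxcl12 0.18, Cxcl13 -0.12, Cxcl14 0.0021 and Ccl8 0.011. A comparison of knockout 3 with wild type 2 and 3, the arrays other than wild type 1 and the 2 with high lung or stomach genes, was added after seeing the data and assumes that the lone sample varies like the others. It gave Cxcl10 0.22, Cxcl1 -0.13, Cxcl13 -0.46 and Cx3cl1 -0.15, and 1 call over all probe sets, Alox15, lower in the knockout. Quantile normalization turned Cxcl9 to -0.063 and Ccl8 to -0.022 on 5 arrays.

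Leaving out 1 array at a time, differences on 6 arrays ranged from -2.53 to 0.0052 for Cxcl9, from -1.39 to 0.19 for Cxcl10, from -0.13 to 0.17 for Cxcl1, from -0.39 to 0.21 for Cxcl12, from -0.16 to 1.00 for Cxcl13, from -0.24 to 0.16 for Cxcl14, from -1.14 to 0.055 for Ccl8 and from -0.066 to 0.28 for Cx3cl1. Starting from 5 arrays, the ranges were -0.049 to 0.057 for Cxcl9, -0.040 to 0.25 for Cxcl1, -0.70 to 0.35 for Cxcl13, -0.32 to 0.080 for Cxcl14 and -0.10 to 0.23 for Ccl8. Cxcl5 and Ccl2 kept their direction in both, and Cxcl12, Cxcl10 and Cx3cl1 on 5 arrays. Members whose groups do not overlap numbered 2 without wild type 1. The cause of these changes was not tested, other than that fewer arrays enter.

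Samples that share a replicate number are not shown to be paired: their deviations from the group means correlated at 0.09, -0.24 and 0.21, and not every sample correlated best with its own number. The fit with the replicate number as a block called 0 probe sets (68 at an unadjusted p under 0.05, against 83 without it) and 0 members. With 3 arrays a group, and several members near background, small differences could not be detected.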
